A study of Mus musculus with 3 samples.

Results

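The intraflagellar transport (IFT) and BBSome genes were described across the libraries of a study of primary mouse pre-osteoclasts under fluid shear. The members were a list of 35 genes set by complex: 10 of the IFT-B1 core, 6 of the IFT-B2 periphery, 6 of IFT-A, 6 motor genes, 6 of the BBSome and 1 ciliary GTPase gene. Of these, 34 were found by symbol among the 24067 genes of the deposited table, and Ift22 was found by its NCBI gene ID, where the table carries the older symbol Rabl5. The list was chosen by complex and not by its values, but with earlier results of these data known.

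Pre-osteoclasts are mononuclear cells of the macrophage lineage that carry tartrate-resistant acid phosphatase and can fuse into osteoclasts. In all groups the cells were kept for 2 days with MCSF and RANKL, the cytokines that drive osteoclast formation. The first group carried a control short hairpin RNA (shRNA) and stayed static. The second carried the control shRNA and received orbital shear stress, fluid flow made by swirling the dish, for 24 hours. The third carried an shRNA against Ift88 and was sheared likewise. Each group was 1 mRNA library, so no difference here has a replicate check and no p-value is given. The 3 libraries include no static culture with the Ift88 hairpin, so an effect of the hairpin alone and one that needs shear cannot be told apart. The hairpin sequence and the number of animals behind each culture are likewise not stated in the sources used.

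The primary cilium is a microtubule-based projection that many cell types use as an antenna for chemical and mechanical signals. Its parts are carried along its axis on IFT trains: kinesin-2 moves IFT-B outward to the tip, and cytoplasmic dynein-2 with IFT-A moves cargo back to the base. The BBSome rides on these trains and removes membrane receptors from the cilium. Several of these proteins also act outside cilia, in vesicle traffic and at the immune synapse of cells that form no cilium, so a transcript level does not show that a cilium is present.

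Levels are in FPKM, the fragments of a gene divided by its length in kilobases and by the size of the library, so genes can be compared per length. The steps between low FPKM values gave depths of about 35000000, 35100000 and 35100000 fragments for the static, sheared control and sheared Ift88 shRNA libraries. The osteoclast genes Acp5 (97.7, 52.9 and 83.0 FPKM in that order) and Ctsk (29.4, 12.6 and 18.5 FPKM) were present in all 3 libraries, with Calcr, a gene of mature osteoclasts, at 0.12, 0.034 and 0.026 FPKM. Of 12 stromal and osteoblast markers, whose cells can be ciliated, 8 were below 1 FPKM in each library, and their summed level was 10.8, 8.03 and 10.4 FPKM. Neutrophil markers summed to 53.0, 20.8 and 25.1 FPKM over 7 genes, and the 3 that passed the filter on low levels used below were all lower under shear (S100a8, S100a9 and Ngp, log2 ratios of FPKM + 1 from -1.61 to -0.89). The 10 genes of motile cilia summed to 1.73, 1.66 and 2.49 FPKM. Of these, Dnah5, Dnah9, Hydin and Tekt1 were listed at 0 in every library, while Dnaic1, Ccdc39 and Ccdc40 were below 1 FPKM but detected in each, and Rsph1 stood at 0.911, 0.982 and 1.59 FPKM, with an Ift88 shRNA over sheared control ratio of 1.62 (counting interval 1.03 to 2.52). In bulk RNA, fewer cells of a type and less RNA per cell cannot be told apart.

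Ift88, the target of the hairpin, encodes a tetratricopeptide protein of the IFT-B1 core that helps to join the core to the periphery (gene ID 21821, chromosome 14, 57424064 to 57517936, GRCm38). It stood at 2.98 FPKM in the static library, 2.71 in the sheared control and 1.20 in the sheared Ift88 shRNA library, from an estimated 302, 275 and 122 fragments. The Ift88 shRNA library was the low one, and the control libraries were close to each other. Against the sheared control, the ratio with Ift88 shRNA was 0.442, with a 95% counting interval of 0.355 to 0.551. Such intervals are Clopper-Pearson intervals on estimated fragments and cover counting error only. Between the control libraries the ratio under shear was 0.908, and its interval of 0.768 to 1.07 includes 1. Among 9672 expressed genes with at least 100 estimated fragments in the sheared control, Ift88 had the second lowest knockdown ratio, at rank 2, and by the log2 ratio of FPKM + 1 it was at rank 14 from the lowest of 10358 genes. The level in the Ift88 shRNA library remained above 1 FPKM, so the transcript was still measured there.

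The members were low to moderate in abundance. Across all 35, the median level was 3.33 FPKM in the static, 3.58 in the sheared control and 3.58 in the sheared Ift88 shRNA library, against 11.1, 10.9 and 11.0 for the 10358 genes with a mean of at least 1 FPKM. In each library 30 members reached 1 FPKM and 5 exceeded the median of those genes. The 5 were Ift20, Ift22, Ift52, Kif3b and Ift27.

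**Figure D1:**
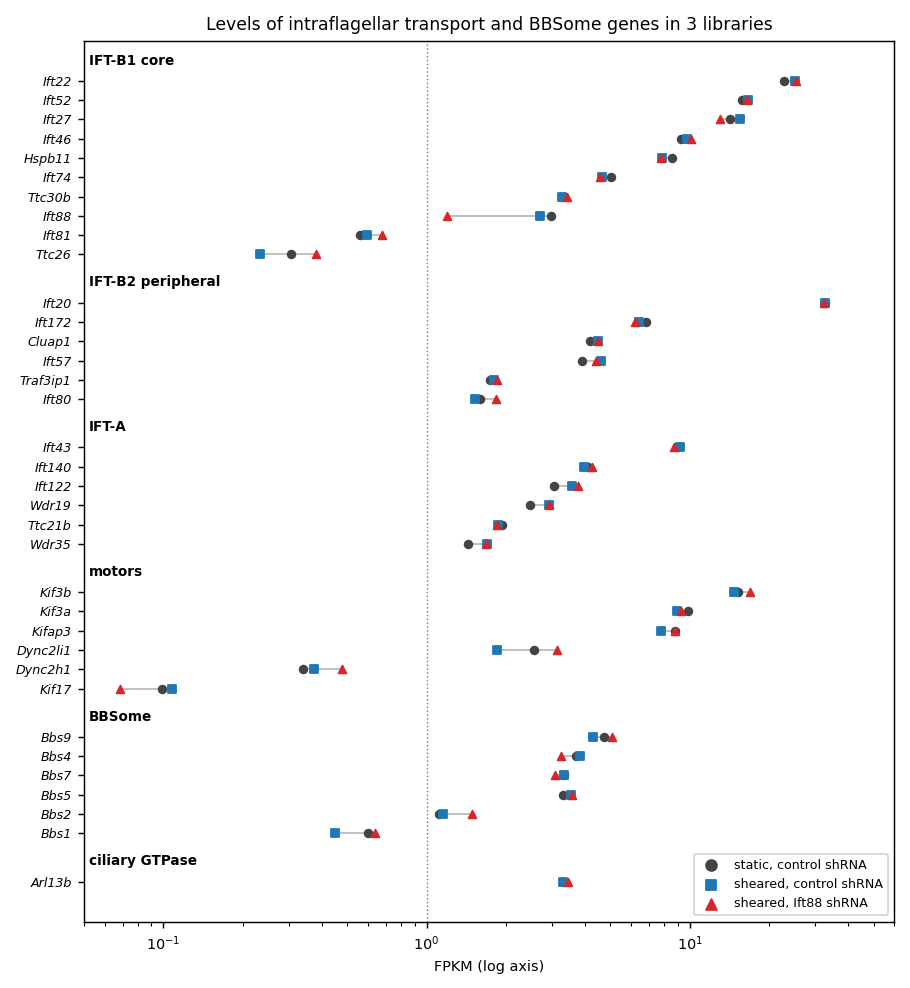
FPKM of each of the 35 members (log axis, 1 point per library, grey lines spanning the 3 libraries), grouped by complex and ordered by the static level. The 3 points of most members nearly coincide, while Ift88 is set apart by its low point of 1.20 FPKM in the Ift88 shRNA library and Dync2li1 spans 1.86 to 3.12 FPKM.

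The highest and the lowest subunit of a complex differed far more from each other than any of its subunits did between libraries. Other subunits of a complex were close, such as Bbs7 and Bbs5 at 3.33 and 3.30 FPKM in the static library. In the static library the IFT-B1 core ran from 22.8 FPKM for Ift22, a Rab-like small GTPase, to 0.305 for Ttc26, also called Ift56, a 74.9-fold span. Apart from Ift88, the largest difference between libraries of any member was 1.68-fold, for Dync2li1. The tubulin-binding partners Ift74 and Ift81, which form a dimer as proteins, were at 5.04 and 0.558 FPKM in the static library. The partners Ift27, a Rab-like GTPase, and Hspb11, also called Ift25, were closer, at 14.2 and 8.58 FPKM. In the IFT-B2 periphery, Ift20, which also sits at the Golgi and sorts ciliary membrane proteins, was the highest member of all at 32.7, 32.8 and 32.4 FPKM. The lowest of the periphery was Ift80 at 1.59, 1.52 and 1.84 FPKM.

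The motors spanned more, 155-fold in the static library between Kif3b and Kif17, and IFT-A and the BBSome spanned less. IFT-A ran in the static library from 9.05 FPKM for Ift43 to 1.44 for Wdr35, and the BBSome from 4.71 for Bbs9 to 0.601 for Bbs1, the subunit that docks on the GTPase Arl6. The kinesin-2 genes Kif3b (15.2, 14.7 and 16.97 FPKM), Kif3a (9.82, 8.92 and 9.23) and Kifap3 (8.76, 7.79 and 8.77) were the abundant motors. This heterotrimeric kinesin also moves cargo in the cytoplasm. The other kinesin-2, Kif17, was at 0.098, 0.11 and 0.069 FPKM, an estimated 7, 8 and 5 fragments. The dynein-2 heavy chain gene Dync2h1, the motor subunit for retrograde transport, was at 0.339, 0.374 and 0.478 FPKM, below its light intermediate chain Dync2li1 in each library.

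Neighbours in the order of levels were often inseparable. In the static order Ift20 and Ift22 stood apart from each other and from the rest, whereas the ranges over the 3 libraries overlapped between Ift52 and Kif3b, between Kif3b and Ift27, and along the run from Bbs4 through Bbs7, Bbs5, Arl13b and Ttc30b to Ift122. Arl13b, a GTPase of the ciliary membrane that activates Arl3, was at 3.29, 3.30 and 3.46 FPKM. Across the 35 members, level and transcript length had a Spearman correlation of -0.37 in the static library, beside -0.23 over 10268 expressed genes with a known length. The members share the library and the length scaling of FPKM, so this is a description.

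A sequence feature shared by part of the list is the X-box, the palindromic element bound by RFX transcription factors that is known from promoters of ciliary genes. It was searched on both strands in the 300 bases around each RefSeq start (250 before and 50 after, GRCm38.p6), where 30 members had an entry. The form GTNNCCNNGGNNAC was found at 7 of 30 members (23.3%), beside 2.16% of 27025 genes and 2.48% of 8393 expressed genes. Of the other forms tried, the stricter GTTNCCNNGGNAAC, contained in the first, was found at 2 of 30 (0.529% of genes), the looser GTNNCNNNNGNNAC, which contains it, at 9 of 30 (8.13%) and the single arm GTTGCC, which can overlap any of these, at 15 of 30 (14.1%). The forms were chosen with these promoters in view, and a match is a description, not a binding site. Ift88 held only the single arm, after its start.

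The windows below show the matches that lie before the start, since these are the shared letters and their genes had ratios on both sides of 1 under shear. Capitals mark the match to GTNNCCNNGGNNAC, written 5′ to 3′ on the strand of the gene.
Bbs7, chr3:36613489-36613518, minus strand: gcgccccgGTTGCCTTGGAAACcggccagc
Ift22, chr5:136908079-136908108, plus strand: ctgtcaggGTTTCCTGGGCTACtgcgcagc
Ift22, chr5:136908109-136908138, plus strand: tgttcccgGTCGCCGTGGAAACtgaccagc
Ift57, chr16:49699199-49699228, plus strand: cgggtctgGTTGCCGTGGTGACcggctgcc
Ttc26, chr6:38381483-38381512, plus strand: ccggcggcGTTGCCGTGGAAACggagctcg
Wdr19, chr5:65199654-65199683, plus strand: tttgcacgGTCTCCTGGGTGACgagaacgc
For Bbs7 and Ttc26 the annotated gene reaches further upstream, to another start. The Ttc26 match lies after that other start (38381464), and the Bbs7 match still lies before its own (36613492). The matches of Bbs1 and Bbs4 lie after the start and are not shown. Sheared over static FPKM ratios of these 7 genes were 1.19 for Wdr19, 1.18 for Ift57, 1.105 for Ift22, 1.03 for Bbs4, 0.996 for Bbs7, 0.766 for Ttc26 and 0.744 for Bbs1, with no test of these against the other members. The RFX genes themselves were led by Rfx1 at 5.72, 5.61 and 6.37 FPKM, while Rfx3, a regulator of ciliary genes in other tissues, was at 0.23, 0.23 and 0.19 FPKM.

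Under shear, with control shRNA in both libraries, no member of the 30 with a mean of at least 1 FPKM was called different, a call being FPKM + 1 at least 25% higher or 20% lower. Of all 10358 genes that passed that filter, 2.23% were called. The median log2 ratio of the 30 members was 0.0054, beside -0.011 for all genes, with 17 members higher and 13 lower, and 46.0% of all genes higher. The FPKM + 1 scale, on which all log2 ratios here are given, understates differences of low genes. By the counting interval, which weighs depth instead of fold, 6 of 30 members had a ratio whose interval excluded 1, 4 higher and 2 lower. Of all genes with an interval, 14.0% were higher and 17.9% lower in this sense. Together that is 31.8% of all genes, and 25.9% of the 7638 genes within the members' range of fragments, beside 6 of 30 members.

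**Figure D2:**
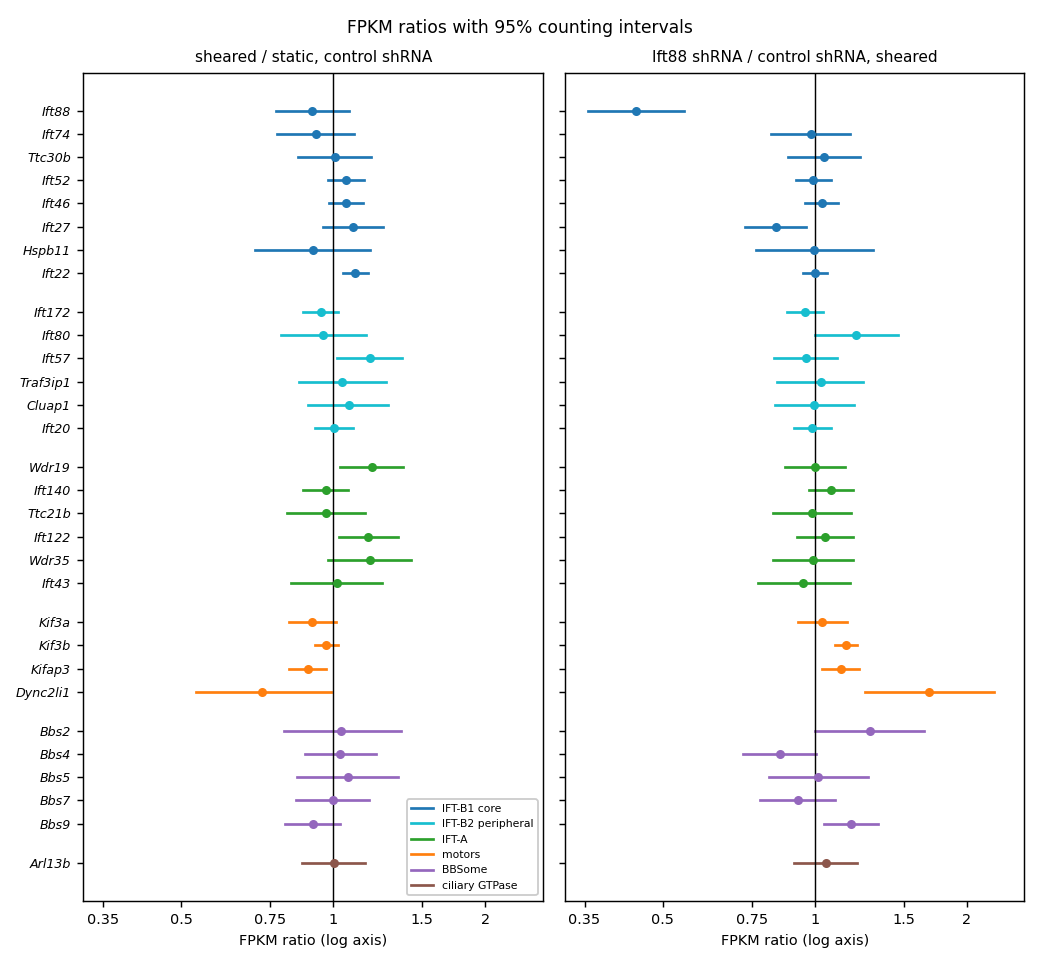
FPKM ratios (points, log axis) with 95% counting intervals (lines) for the 30 members with a mean of at least 1 FPKM, sheared over static at left and Ift88 shRNA over control shRNA at right, coloured by complex. Most intervals cross 1. At right, Ift88 lies at 0.442 and Dync2li1 at 1.68, and both panels share the sheared control library.

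Of the 4 members whose interval lay above 1, 2 were of IFT-A and 1 each of the IFT-B1 core and the IFT-B2 periphery. These 4 of 30 are a share close to the 14.0% of all genes in this sense. Wdr19, the IFT-A subunit also called Ift144, was at 2.46 FPKM in the static, 2.93 in the sheared control and 2.93 in the sheared Ift88 shRNA library, so the static library was the low one. Its sheared over static ratio was 1.19 (1.03 to 1.37). Ift122, a WD-repeat subunit of the same complex, stood at 3.05, 3.58 and 3.75 FPKM (ratio 1.17, 1.03 to 1.34). Both sheared libraries again stood above the static one. Ift57, of the IFT-B2 periphery, was at 3.90, 4.60 and 4.41 FPKM (ratio 1.18, 1.02 to 1.37). Ift22 stood at 22.8, 25.2 and 25.3 FPKM, with a ratio of 1.105 (1.04 to 1.17) that rests on an estimated 2303 and 2551 fragments. Wdr35, also called Ift121, was at 1.44, 1.70 and 1.69 FPKM, and its interval (0.977 to 1.42) included 1. The IFT-A list had a median log2 ratio of 0.083 over 6 members, 4 of them higher. The remaining IFT-A members Ttc21b, also called Ift139 (1.94, 1.88 and 1.85 FPKM), Ift140 (4.10, 3.96 and 4.26) and Ift43 (9.05, 9.20 and 8.74) had intervals that included 1.

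The motor genes had ratios on both sides of 1 under shear. The 4 that passed the filter had a log2 ratio below 0, from -0.32 for Dync2li1 to -0.043 for Kif3b, with a median of -0.14. The other 2 motor genes, below the filter, had ratios above 1: Dync2h1 at 1.102 (0.886 to 1.37), on an estimated 164 and 181 fragments, and Kif17 at 1.09 (0.361 to 3.69), and both intervals include 1. The sign of Kif3b was the least sure, at -0.0016 after centring for transcript length and GC content. Kifap3, the adaptor that holds the kinesin-2 motors, had a ratio of 0.890 (0.817 to 0.967). Dync2li1 stood at 2.56 FPKM without shear and at 1.86 with it, a ratio of 0.724 (0.535 to 0.989) from an estimated 104 and 76 fragments. The stromal marker sum was also lowest in the sheared control (10.8, 8.03 and 10.4 FPKM), and so were the osteoclast marker sum over 10 genes (445, 338 and 413) and the neutrophil sum (53.0, 20.8 and 25.1). Of the stromal genes the 4 above the filter were all lower, 2 of them called, beside 1.22% of all genes. Pdgfrb, a stromal gene below the filter, went the other way, at 0.453 FPKM without and 0.552 with shear. Its interval (0.899 to 1.64) includes 1. The osteoclast genes did not move together. Of the 8 above the filter 4 were called lower and 1 higher, beside 1.22% and 1.01% of all genes. The higher one was Itgb3, at 5.36 FPKM without and 7.08 with shear (ratio 1.32, 1.22 to 1.43). The part of these cells in the motor values was not tested.

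Most of the BBSome and the rest of IFT-B had ratios near 1 under shear. Over the 5 BBSome members that passed the filter the log2 ratio ran from -0.11 for Bbs9 to 0.074 for Bbs5, a lipid-binding subunit, with a median of 0.027 and intervals that all include 1. The BBSome member below the filter, Bbs1, had a ratio of 0.744 whose interval (0.555 to 0.993) excludes 1, on an estimated 114 and 85 fragments. The IFT-B2 median was 0.020 over 6 members, and that of the IFT-B1 core without Ift88 was 0.073 over 7. Of the core members below the filter, Ift81 had a ratio of 1.06 and Ttc26 of 0.766 (0.471 to 1.23), and both intervals include 1. Ift20 had a ratio of 1.00 (0.921 to 1.09) and Arl13b of 1.00 (0.866 to 1.15). Ift46 (1.06, 0.979 to 1.14) and Ift52 (1.06, 0.975 to 1.15), both core subunits, had intervals that included 1.

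With Ift88 shRNA, against the sheared control, the other members were mostly close to 1. Without Ift88, 1 of the 29 members that passed the filter was called, as higher, beside 1.89% of all 10358 genes called higher, 1.32% called lower and 3.21% in either direction. Their median log2 ratio was 0.0016, beside 0.010 for all genes, with 15 members higher and 14 lower, and 53.6% of all genes higher. By the counting interval 6 of the 29 were higher and 1 was lower. Over all genes with an interval 18.4% were higher and 13.5% lower, together 31.9%, and 26.0% within the members' range of fragments. The 6 higher members were Dync2li1, Kif3b, Kifap3, Bbs9, Ift80 and Bbs2, and for Ift80 and Bbs2 the lower bound only just passed 1. This comparison and the one under shear share the sheared control library, so a low or high value there enters both.

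**Figure D3:**
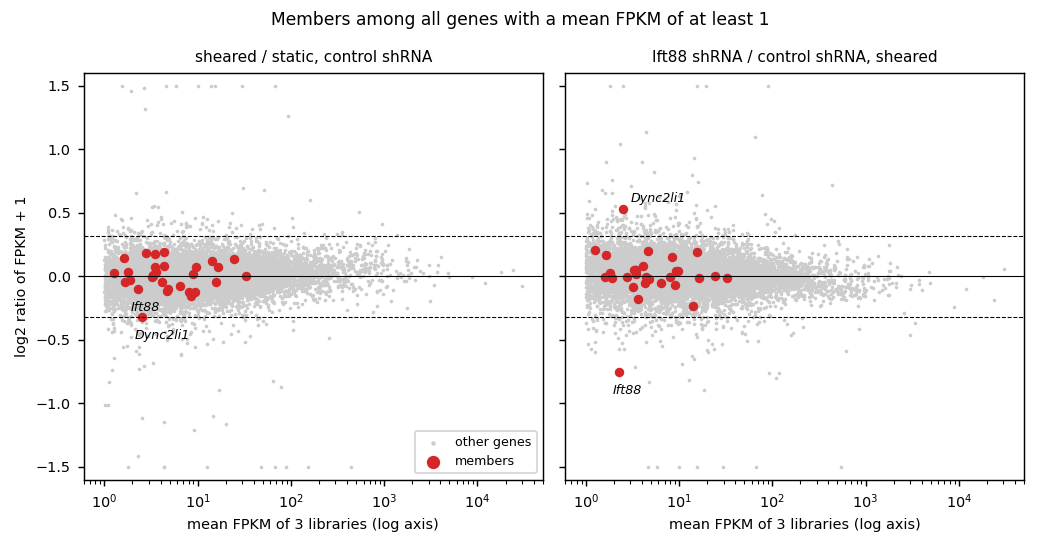
log2 ratio of FPKM + 1 against mean FPKM (log axis) for 10358 genes (grey) and the 30 members that passed the filter (red), under shear at left and with Ift88 shRNA at right. Dashed lines mark 25% higher and 20% lower, and genes beyond 1.5 are drawn at 1.5. Ift88 (-0.76) and Dync2li1 (0.53) lie outside the dashed lines at right.

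The subunits that bind next to Ift88 in the IFT-B1 core did not share its low value. Over the 7 other core members that passed the filter the median log2 ratio was -0.0023. Ift52, its direct partner, was at 16.7 FPKM in the sheared control and 16.6 in the Ift88 shRNA library (ratio 0.993, 0.916 to 1.08). Ift46 stood at 9.77 and 10.1 FPKM (ratio 1.03, 0.958 to 1.11). Both intervals include 1 and leave out the size of the Ift88 difference. Ift27 was the exception on the low side, at 14.2 FPKM in the static, 15.5 in the sheared control and 13.03 in the Ift88 shRNA library, with a knockdown ratio of 0.839 (0.728 to 0.963). The value with Ift88 shRNA was the lowest of its 3, but its ratio to the static library was 0.917 with an interval of 0.795 to 1.06. Its protein partner Hspb11 was at 7.83 and 7.81 FPKM (ratio 0.998, 0.765 to 1.31). The remaining core members Ift22 (1.00) and Ift74 (0.983) had intervals that included 1, as did Ttc30b (1.04, 0.887 to 1.23).

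Ttc30b, also called Ift70, and Cluap1, also called Ift38, are uncertain. Of the stretches of 50 bases in the Ttc30b transcript, 25.8% are also in Ttc30a1 and 30.1% in Ttc30a2, so fragments may be divided between these copies by estimation. The 3 copies summed to 6.01, 6.06 and 6.50 FPKM. Cluap1 shares 26.6% of its stretches with the annotated gene Gm20695 and was at 4.19, 4.49 and 4.48 FPKM. Smaller exon overlaps were annotated for Ift57 (7.86% of its exon bases, antisense Gm15518), Bbs4 (3.21%, Adpgk), Kif17 (1.62%, Sh2d5) and Ift88 (1.45%, antisense Ift88os).

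In the periphery and IFT-A, medians with Ift88 shRNA were -0.0085 and -0.0042 over 6 members each. Ift80, a subunit of the periphery, was at 1.59, 1.52 and 1.84 FPKM, a knockdown ratio of 1.21 (1.00 to 1.46). Ift172, the largest IFT-B protein, was at 6.83, 6.44 and 6.17 FPKM, and its knockdown ratio of 0.958 had an interval of 0.882 to 1.04. Traf3ip1, also called Ift54, was at 1.74, 1.81 and 1.86 FPKM (ratio 1.03, 0.842 to 1.24). No IFT-A member had an interval that excluded 1, and the widest departure there was Ift140 at 1.08 (0.973 to 1.19).

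Dync2li1 differed most after Ift88. It encodes the light intermediate chain of dynein-2, which stabilises the motor for retrograde transport (chromosome 17, 84626475 to 84655568). The gene was at 2.56 FPKM in the static, 1.86 in the sheared control and 3.12 in the sheared Ift88 shRNA library, from an estimated 104, 76 and 128 fragments. The sheared control was the low library. Its knockdown ratio was 1.68 (1.26 to 2.27), rank 39 of 10358 genes by log2 ratio of FPKM + 1. Against the static library the ratio was 1.22, and that interval (0.940 to 1.61) included 1. No annotated exon of another gene overlaps Dync2li1, and its closest protein-coding neighbour Abcg5, 2606 bases away, was listed at 0 in every library.

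The kinesin-2 genes Kif3b and Kifap3 were also higher with Ift88 shRNA, by less. Kif3b stood at 15.2, 14.7 and 16.97 FPKM, with a knockdown ratio of 1.15 (1.09 to 1.21) on an estimated 2817 and 3243 fragments. Here the Ift88 shRNA library was the high one, also against the static library (1.12, 1.06 to 1.17). Kifap3 was at 8.76, 7.79 and 8.77 FPKM, a knockdown ratio of 1.13 (1.04 to 1.23), with the sheared control as the low library. Kif3a, the partner of Kif3b, had a ratio of 1.03 (0.928 to 1.15). The median log2 ratio over the 4 motor members that passed the filter was 0.17, and all 4 were above 0 under each scaling tried. Of the 2 below the filter, Dync2h1 had a knockdown ratio of 1.28 (1.05 to 1.56) and Kif17 one of 0.638, on an estimated 8 and 5 fragments. The stromal marker sum was 8.03 FPKM in the sheared control and 10.4 in the Ift88 shRNA library, and the neutrophil sum 20.8 and 25.1. Of the stromal genes the 4 above the filter were all higher, 2 of them called, beside 1.89% of all genes. Pdgfrb, a stromal gene below the filter, went the other way, at 0.552 and 0.429 FPKM. Its interval (0.575 to 1.06) includes 1. The osteoclast marker sum was 338 and 413 FPKM. Of its 8 genes above the filter 4 were called higher and 0 lower, beside 1.89% and 1.32% of all genes. Among the 4 were Mmp9 (ratio 2.18), Dcstamp (1.98) and Acp5 (1.57). Atp6v0d2, the highest of the list, went the other way, at 199 and 182 FPKM (ratio 0.914, 0.894 to 0.935). The part of these cells in the motor values was not tested.

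BBSome ratios lay on both sides of 1 with Ift88 shRNA. Bbs9, a scaffold subunit, stood at 4.71, 4.29 and 5.06 FPKM (ratio 1.18, 1.04 to 1.34). Bbs2, which forms the head of the complex with Bbs7, stood at 1.12, 1.16 and 1.49 FPKM (ratio 1.29, 1.00 to 1.65). Bbs7 itself was at 3.33, 3.32 and 3.07 FPKM, and its ratio of 0.925 had an interval of 0.780 to 1.09. Bbs4, which binds pericentriolar material, stood at 3.70, 3.82 and 3.25 FPKM, a ratio of 0.852 with an interval (0.721 to 1.01) that includes 1. The median log2 ratio over the 5 members that passed the filter was 0.017.

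The 5 members with a mean below 1 FPKM were set apart, since the filter left them out. Bbs1 was at 0.601, 0.447 and 0.636 FPKM, and Ttc26 at 0.305, 0.234 and 0.379. In both, as in Dync2li1, the sheared control was the low library. Their knockdown ratios were 1.42 (1.07 to 1.90) and 1.62 (1.02 to 2.56), the latter from an estimated 33 and 53 fragments. Dync2h1 was highest with Ift88 shRNA, also against the static library (ratio 1.41, 1.14 to 1.73). Ift81 (0.558, 0.593 and 0.678 FPKM) had a knockdown interval of 0.800 to 1.68, and for Kif17 the interval of 0.161 to 2.17 shows no direction at this depth.

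Beside the members, 88 other ciliary genes were listed by role, of which 86 were in the table and 63 passed the filter. Under shear 2 of the 63 were called higher and 0 lower. B9d2, a transition zone gene, stood at 9.26 FPKM without and 12.7 with shear (ratio 1.37, 1.17 to 1.61). Tctex1d2, a dynein-2 light chain gene, was at 32.1 and 41.9 FPKM (ratio 1.31, 1.19 to 1.44). With Ift88 shRNA 1 of 63 was called higher and 0 lower, the transition zone gene Tmem216, at 3.27 FPKM in the sheared control and 4.55 with Ift88 shRNA (ratio 1.39, 1.04 to 1.86). These shares are read against the 2.23% and 3.21% given above.

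By list, the log2 ratios of these genes under shear lay on both sides of 0 in each list except the RFX genes. Further subunits of IFT, dynein-2 and the BBSome ran from Bbs10 (-0.20) to Tctex1d2 (0.38) with a median of 0.0063. The transition zone, the gate at the base of the cilium, ran from Mks1 (-0.30) to B9d2 (0.41) with a median of -0.073 over 13 genes. Basal body and assembly genes ran from Ccp110 (-0.16), a cap protein of the centriole, to Rab3ip (0.11), the exchange factor of Rab8, with a median of -0.054 over 14. Ciliary membrane traffic genes ran from Inpp5e (-0.16), a phosphatase of ciliary lipids, to Arl2 (0.24). Genes of cilium disassembly, several of which serve mitosis, ran from Kif2a (-0.12) to Plk1 (0.25). RFX genes ran from Rfx7 (-0.15) to Rfx1 (-0.023), and in the Hedgehog list Sufu was at -0.012 and Ptch1 at 0.073.

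With Ift88 shRNA the log2 medians of these lists were between -0.053 and 0.097. The further IFT, dynein-2 and BBSome genes ran from Bbip1 (-0.14) to Rabl2 (0.26), a GTPase that starts trains at the base, with a median of 0.023. The transition zone ran from Tmem107 (-0.22) to Tmem216 (0.38), with a median of 0.093 and 10 of 13 genes above 0. Basal body genes ran from Odf2 (-0.13) to Cep164 (0.22), both appendage proteins, with a median of 0.035. Membrane traffic genes ran from Arl2 (-0.093) to Unc119b (0.20), a carrier of lipidated cargo, and disassembly genes from Tchp (-0.0052) to Plk1 (0.24). RFX genes ran from Rfx7 (0.085) to Rfx1 (0.16), and of the Hedgehog list Ptch1 was at -0.18 and Sufu at 0.070. Over the 63 genes 44 were above 0, where 53.6% of all genes were.

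**Figure D4:**
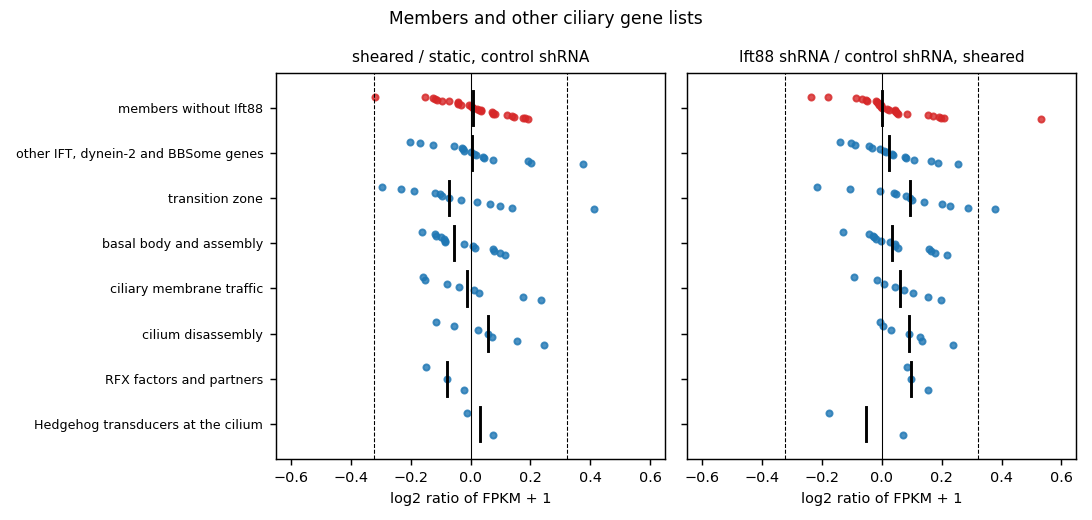
log2 ratios of FPKM + 1 (1 point per gene with a mean of at least 1 FPKM) for the 29 members without Ift88 and 7 lists of other ciliary genes, with medians as black bars and the limits of a call as dashed lines. The points of each list lie on both sides of 0, except for the 3 RFX genes, all below 0 at left and all above 0 at right. Beyond the dashed lines are B9d2 (0.41) and Tctex1d2 (0.38) at left. At right these are Tmem216 (0.38) and, of the members, Dync2li1 (0.53).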

How the data were processed

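mRNA of 3 libraries of mouse pre-osteoclasts was measured, 1 per group, with groups taken from the sample titles. Values are FPKM per gene, deposited by the authors in 1 table. Per the submitters' processing notes reads on mm10 went through Cufflinks 2.2.1 and TopHat2 2.0.13, with Trimmomatic 0.32 and bcl2fastq 1.8.4 also named. Settings and the use of strand: not given in the sources used here.

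Ratios were taken as log2 of (FPKM + 1) over genes with a mean of at least 1 FPKM. With 1 library a group there is no test: genes were called when FPKM + 1 was at least 25% higher or 20% lower, beside the same share of all genes. Fragments were estimated from the steps of low values in genes of 1 transcript over 1000 bases. Of these values 67.5%, 66.0% and 66.2% were whole within 0.1, so the fragments are approximate and no p-value was taken from them. The counting intervals rest on these estimated fragments. Transcript lengths are from GENCODE M21, and coordinates and promoters are from RefSeq, both GRCm38. For genes with several transcripts the shortest was used, which widens intervals. The steps were checked on simulated data. Python 3.11.15, pandas 2.3.3 and scipy 1.17.1 were used.

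Members and lists were chosen with earlier results of these data known. Named genes were all members and the highest and lowest gene of each ciliary list. Other genes were named after their values were seen.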

Additional observations from a re-analysis of the deposited data

How the results depend on the processing

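The median log2 ratio of the members ran from -0.0096 to 0.031 under shear and from -0.0099 to 0.033 with Ift88 shRNA over another pseudocount, other filters, other scalings, centring for length and GC content, and leaving out Ttc30b and Cluap1. The medians changed sign in some of these, within the counting error of single members. Counts of called members moved. Under shear, with 0 of 30 members as reported, 1 passed with a pseudocount of 0.1, where 4.43% of all genes did. With equal total FPKM 1 passed, beside 2.31% of all genes (Dync2li1 in both). At 1.1-fold 7 passed, where 22.8% of all genes did. With Ift88 shRNA, with 1 of 29 as reported, 2 of 29 passed with a pseudocount of 0.1 (Dync2li1 and Bbs2), beside 5.63% of all genes. With a mean of at least 5 FPKM 0 of 11 passed, beside 2.28% of all genes. At 1.5-fold 0 of 29 passed, beside 0.483%, and at 1.1-fold 8 of 29, where 23.3% of all genes did. The other ciliary genes were put through alternatives chosen after seeing the data. With a pseudocount of 0.1, 4 of 63 passed under shear, beside 4.43% of all genes, and 3 of 63 with Ift88 shRNA, beside 5.63%. At a mean of at least 5 FPKM 0 of 27 passed with Ift88 shRNA, beside 2.28% of all genes. The log2 ratio of Ift88 with the hairpin was -1.11 with a pseudocount of 0.1, beside -0.76 as reported, and no member whose interval excluded 1 changed sign under any scaling. No paired analysis was possible because each group has 1 library, and no library could be left out. At about 35100000 fragments a library, members below 1 FPKM rest on as few as 5 fragments.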

Other observations

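Among Hedgehog genes, which signal through the cilium in other cells, Ptch1 and Smo were lowest in the Ift88 shRNA library. These genes were picked with their values in view, and 13.5% of all genes with an interval were lower with Ift88 shRNA by that interval. The receptor gene Ptch1 was at 1.40 FPKM in the static, 1.52 in the sheared control and 1.23 in the Ift88 shRNA library, a knockdown ratio of 0.81 (0.70 to 0.94). Smo, the transducer that Ptch1 holds in check, was below the filter at 0.69, 0.63 and 0.42 FPKM (ratio 0.66, 0.46 to 0.95). Sufu, a cytosolic repressor of the pathway, was not lower, at 4.26, 4.21 and 4.47 FPKM. Kif7, below the filter, was lowest in the sheared control, at 0.27, 0.18 and 0.26 FPKM. Its knockdown ratio of 1.49 had an interval (0.89 to 2.51) that includes 1. Gli1 (0.057, 0.041 and 0.0082 FPKM) and Gli3 (0.010, 0.010 and 0.0069 FPKM) were also lowest with Ift88 shRNA, but barely detected. Their knockdown intervals (0.0036 to 1.37 and 0.056 to 5.82) include 1. Gpr161 was at 0, 0.016 and 0.016 FPKM, and Gli2 was listed at 0 in every library.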
